A study of Mus musculus with 4 samples.

Results

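Bone morphogenetic proteins (BMPs), their secreted antagonists and 2 of their target genes were followed across the cells of the mouse mid-colon. The 9 genes, taken by symbol from the 55450 genes of the deposited count tables, were the ligand genes Bmp2, Bmp3, Bmp4, Bmp5 and Bmp7, the antagonist genes Grem1 and Chrdl1, and the target genes Id1 and Id3. Single cells were captured in droplets, and a 3-prime kit read the ends of their transcripts. Mice of the DSS group drank 3% dextran sulfate sodium, a polysaccharide that injures the colonic lining, for 2 days, and mice of the control group drank clean water. All mice were 7 weeks old and kept free of specified pathogens, and strain and sex were not stated in the labels. Each group held 2 libraries, named DSS 1, DSS 2, control 1 and control 2. The labels do not state that libraries of a group came from separate animals, so a p-value here reflects library-to-library spread alone, and that spread may be technical.

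BMPs are secreted dimers that bind pairs of type I and type II serine-threonine kinase receptors, which then phosphorylate SMAD1, SMAD5 and SMAD9. In the intestine, BMP signalling is known to be low at the crypt base, where antagonists from the surrounding stroma protect the stem cells, and higher towards the surface, where it favours differentiation. Id1 and Id3 encode inhibitors of basic helix-loop-helix transcription factors and are widely read as targets of BMP signalling, although other signals also control them.

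The promoters of Bmp4 and Grem1 are shown because this ligand and this antagonist were carried by the same lamina propria and submucosal fibroblasts, whereas telocytes carried Bmp4 with little Grem1. Each sequence is the 250 bases before the gene's start, from RefSeq on GRCm38.p6, minus strand, 5′ to 3′. Grem1 was read from chr2:113758649-113758898 and Bmp4 from chr14:46390670-46390919. Capitals mark GGCGCC, a GC-rich SMAD1 and SMAD5 motif, and GTCTG, a SMAD motif whose reverse complement is CAGAC. Both motifs were searched on both strands and share no overlap here.
Grem1: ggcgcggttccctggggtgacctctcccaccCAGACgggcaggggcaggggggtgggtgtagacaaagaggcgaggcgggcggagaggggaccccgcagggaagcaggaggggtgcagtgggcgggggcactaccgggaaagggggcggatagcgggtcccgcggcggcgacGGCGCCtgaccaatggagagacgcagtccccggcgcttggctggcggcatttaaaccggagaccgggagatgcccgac
Bmp4: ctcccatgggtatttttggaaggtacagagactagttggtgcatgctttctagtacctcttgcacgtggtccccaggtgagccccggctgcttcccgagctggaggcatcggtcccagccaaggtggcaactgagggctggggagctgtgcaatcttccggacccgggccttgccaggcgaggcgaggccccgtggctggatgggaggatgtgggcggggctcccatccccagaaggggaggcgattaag
The Grem1 window held 1 GGCGCC and 1 GTCTG, and the Bmp4 window held 0 of each. Of 32851 promoter windows of the same length, 9.59% held GGCGCC and 42.2% held GTCTG. GC bases made up 72.0% of the Grem1 window and 63.2% of the Bmp4 window, against a median of 52.4% over all windows. A match describes these letters only. RefSeq promoter entries were matched for 4 of the 9 genes.

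The files held 108941875 and 109472082 unique molecular identifiers (UMIs, counted transcripts) in DSS 1 and DSS 2 and 101051573 and 101834659 in control 1 and control 2. After filtering, 11574 and 11591 DSS cells and 9039 and 10244 control cells were kept, 42448 in all, and pairs of libraries shared 36 to 52 barcodes. Cells were clustered without the 9 genes and named from marker genes, so that each name below means cells like that type. The make-up differed between libraries of a group: progenitors made up 2.91% and 5.57% of DSS cells and 22.3% and 7.67% of control cells. An inflamed fibroblast cluster led by Ptx3, Tnfaip6 and Il6 had 22 and 1933 cells in DSS 1 and DSS 2 and 1 and 247 cells in control 1 and control 2, and it was not fitted. Levels are given as CPM, the UMIs of a gene scaled to counts per 1000000 UMIs summed over the cells of a class in 1 library. CPM of a 3-prime kit counts transcripts and is not scaled by gene length. Differences are log2 fold changes, DSS over control, each with its standard error (SE) from edgeR's quasi-likelihood fit. A gene was called at an adjusted p under 0.05. Exact permutation of 2 against 2 libraries reaches a two-sided p of 0.333 at best and was not run.

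**Figure D1:**
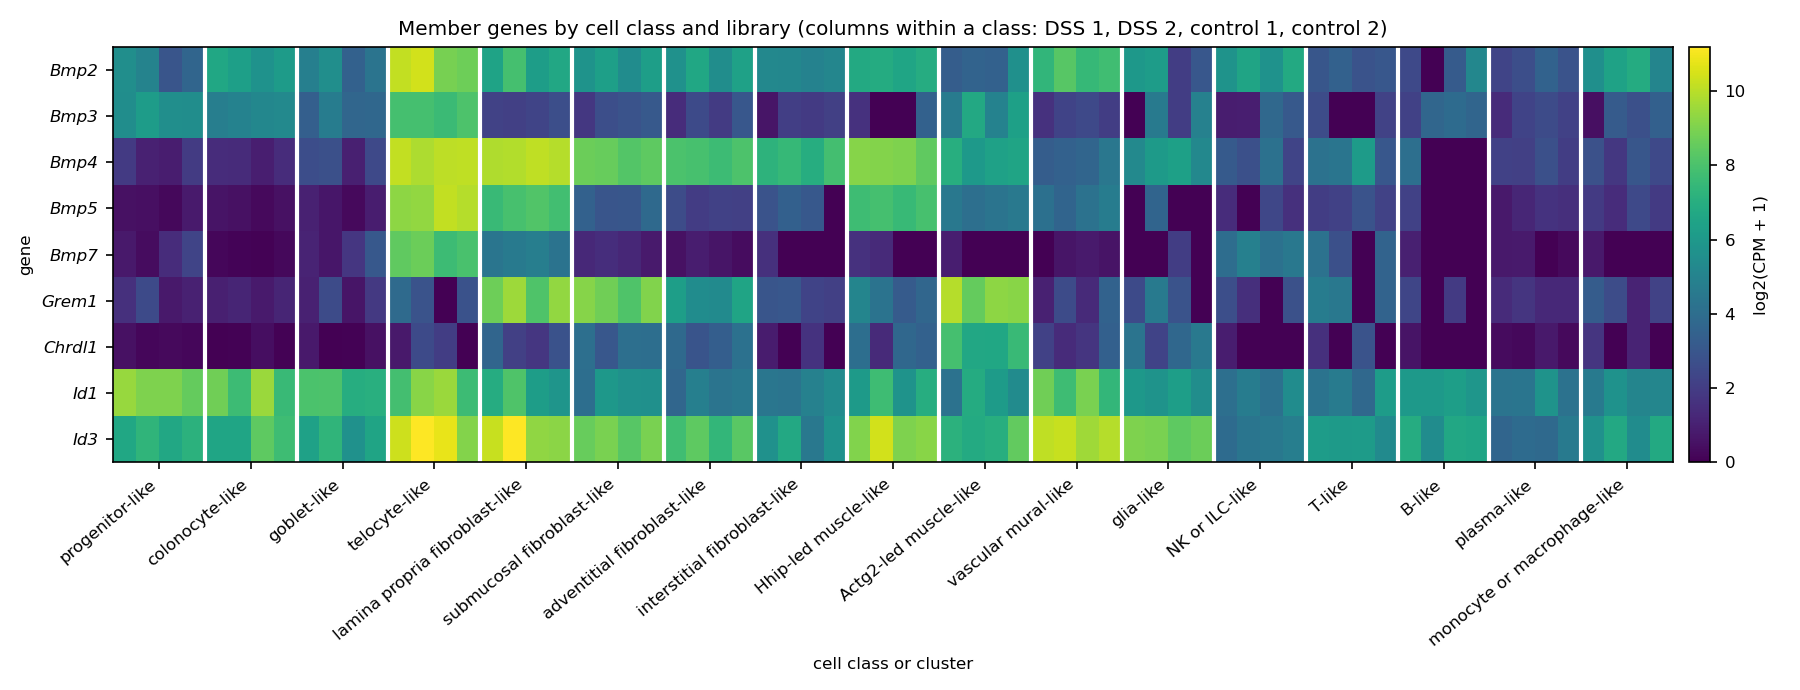
Level of the 9 genes as log2(CPM + 1) in cell classes and clusters, with 4 columns per class in the order DSS 1, DSS 2, control 1, control 2. Bmp4, Bmp5 and Bmp7 are bright in telocyte-like fibroblasts, whereas Grem1 is bright in lamina propria, submucosal and Actg2-led muscle-like cells and low in telocyte-like cells.

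Of 164 pairs of a member and a class or cluster that passed the filter on low counts in 27 fitted classes and clusters, 2 were called by edgeR, and 29 had an unadjusted p under 0.05. Both calls were higher Bmp2 in DSS, in progenitors and in cluster 2, which holds most of them. Of all genes, edgeR called 2.98% in progenitors and 4.05% in cluster 2. Within a class or cluster, counts of members at an unadjusted p under 0.05 are not set beside all genes. They therefore cannot show whether members exceed other genes, and nothing is read from them. Since only 2 pairs were called, most other differences below are given as values. Over all kept cells, all 9 members passed the filter, 0 were called and 1, Bmp7, had an unadjusted p under 0.05. edgeR called 0% of all 21073 genes in that comparison, where 2139 had an unadjusted p under 0.05. DESeq2 called 0 members there and 2.09% of all genes.

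Over all kept cells, Bmp4 stood at 90.3 and 78.4 CPM in DSS and 37.1 and 54.9 CPM in control (log2 fold change 0.82, SE 0.37, adjusted p = 0.526 in edgeR). Grem1 stood at 58.1 and 67.5 CPM in DSS and 14.4 and 44.7 CPM in control (1.02, SE 0.53, adjusted p = 0.582 in edgeR). Bmp5 stood at 19.6 and 16.8 CPM in DSS and 9.62 and 11.8 CPM in control (0.71, SE 0.33, adjusted p = 0.531 in edgeR). In these 3 of the 7 members with a mean of at least 10 CPM, both DSS libraries lay above both controls, and in 0 both lay below. Of all genes at that level, 16.9% lay above and 13.2% below. In sums over the tissue, more cells of a type and more RNA per cell cannot be told apart. Fibroblasts held most UMIs of all 3 genes and made up 23.1% and 35.7% of DSS cells and 19.2% and 18.8% of control cells.

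Bmp2, a ligand known from the upper crypt and surface, had the most spread sources. Over the 4 libraries pooled, colonocytes, the absorptive surface cells, held 38.3% of its UMIs and fibroblasts 35.5%, but the leading class was not the same in each library. Colonocytes held 22.3% and 33.9% of Bmp2 UMIs in DSS and 41.3% and 61.4% in control, and fibroblasts held 42.1% and 45.0% in DSS and 19% and 19.4% in control. By level, vascular mural cells, the contractile cells around small vessels, were the highest of the 12 fitted classes at 164 and 312 CPM in DSS and 179 and 217 CPM in control, and fibroblasts followed at 168 and 241 CPM in DSS and 66.5 and 105 CPM in control. These ranges over the 4 libraries overlapped, and at resolution 2, a finer clustering, smooth muscle or myofibroblasts led instead. NK or ILC cells, the innate lymphocytes, came next at 52.7 and 91.4 CPM in DSS and 50.9 and 109 CPM in control. Their range overlapped that of colonocytes, whose levels are given below. Monocytes or macrophages had a Bmp2 UMI in 13.6% of DSS and 11.4% of control cells, at median depths of 6010 and 2814 UMIs. A Bmp2 UMI was found in 11.4% of DSS and 10.7% of control NK or ILC cells, against 0.518% of DSS and 2.92% of control B cells. Median depths were 2854 UMIs in DSS and 1807 in control for NK or ILC cells and 2336 in DSS and 1797 in control for B cells.

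Telocytes, subepithelial fibroblasts marked here by genes such as Sox6, Nrg1 and Wnt5a, carried the most Bmp2 of the fitted clusters. The cluster held 209 and 251 DSS cells and 89 and 75 control cells. Bmp2 stood at 1163 and 1365 CPM in its DSS cells and 473 and 418 CPM in its control cells, or 1264 ± 143 against 446 ± 39.1 CPM (SD, n = 2 each). Both DSS libraries lay above both controls, and the difference was not called by edgeR (log2 fold change 1.63, SE 0.39, adjusted p = 0.162) but was by DESeq2 (adjusted p = 0.00899). A Bmp2 UMI was found in 79.8% of DSS and 62.8% of control telocytes, and in 56.3% and 45.9% of them after thinning each cell to 1500 UMIs. Median depths were 5176 UMIs in DSS and 3492 in control telocytes.

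Bmp7, a ligand of the same subgroup as Bmp5, had 61.6% of its UMIs in these 624 telocytes when the 4 libraries were pooled. Telocytes gave 69.3% and 78.1% of Bmp7 UMIs in DSS and 26.3% and 31.4% in control. In control, progenitors gave a further 24.3% and 20.1% and goblet cells 21.4% and 20.5%. In telocytes Bmp7 stood at 351 and 411 CPM in DSS and 202 and 251 CPM in control telocytes, or 381 ± 42.5 against 227 ± 35.0 CPM (SD, n = 2 each). The libraries did not overlap, and the difference was not called (0.89, SE 0.33, adjusted p = 0.398 in edgeR). Bmp5 ran the other way, with 635 and 660 CPM in DSS and 1142 and 990 CPM in control telocytes (-0.59, SE 0.38, adjusted p = 0.754 in edgeR). Both DSS libraries lay below both controls. Bmp4 overlapped, with 1147 and 903 CPM in DSS and 1082 and 1106 CPM in control telocytes (0.05, SE 0.40, adjusted p = 0.991 in edgeR).

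Of the 7 members with at least 10 CPM in telocytes, 2 lay higher and 1 lower in both DSS libraries, where 14.1% of all genes lay higher and 24.3% lower. edgeR called 0 of the 7 members it tested there, 2 of which had an unadjusted p under 0.05, and 0.0347% of all genes. DESeq2 called 1, Bmp2, and 1.14% of all genes. Other markers moved in the same cells. The 7 telocyte markers summed to 3282 and 3728 CPM in DSS and 1770 and 1884 CPM in control, with 3 higher and 2 lower in both DSS libraries. The 9 colonocyte markers summed to 144 and 357 CPM in DSS and 543 and 2051 CPM in control, with 7 lower, and the 8 inflamed fibroblast markers to 390 and 832 CPM in DSS and 133 and 96.9 CPM in control, with 5 higher. No marker of these lists was at 0, and their part in the differences was not tested.

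**Figure D2:**
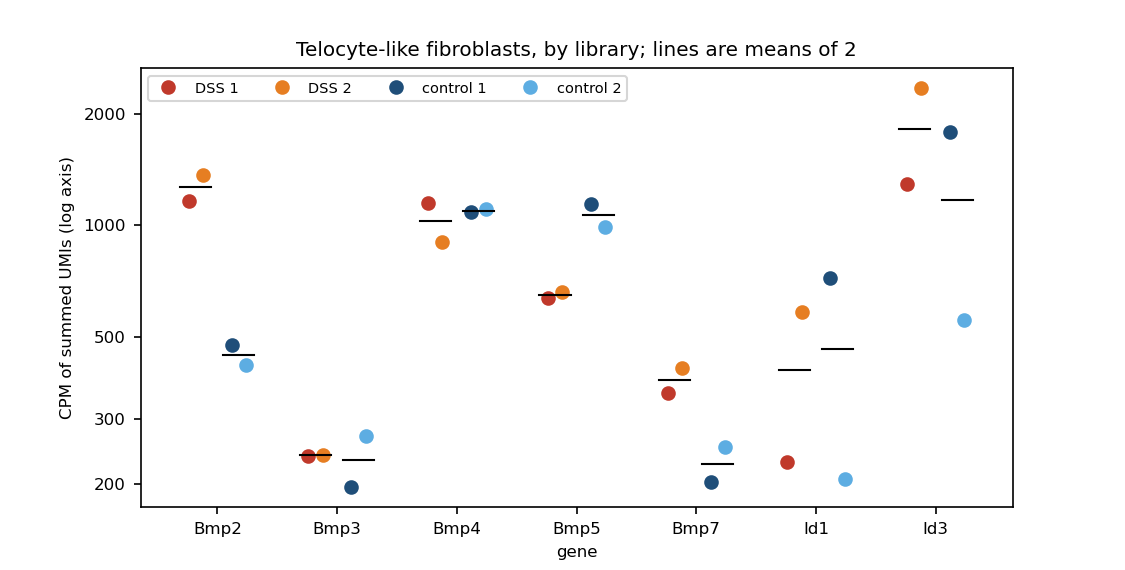
CPM of summed UMIs (log axis) of 7 member genes in telocyte-like fibroblasts, 1 point per library and a line at the mean of 2. Bmp2 and Bmp7 are higher and Bmp5 lower in both DSS libraries than in both controls, and Bmp3, Bmp4, Id1 and Id3 overlap.

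In fibroblasts as a class, Bmp7 stood at 40.3 and 34.2 CPM in DSS and 15.1 and 12.5 CPM in control (1.54, SE 0.28, adjusted p = 1.0 in edgeR, 0.0374 in DESeq2). Bmp2 differed by 1.36 (SE 0.34, adjusted p = 1.0 in edgeR), with both DSS libraries above both controls. All 9 members passed the filter in fibroblasts, and edgeR called 0 of them and 0% of all genes, with 3 members at an unadjusted p under 0.05. DESeq2 called 1 member and 0.192% of all genes. Of 8 members with at least 10 CPM, 4 (Bmp2, Bmp3, Bmp7 and Id3) lay higher and 0 lower in both DSS libraries, where 5.07% of all genes lay higher and 16.8% lower. The make-up of the class differed as well. Telocytes held 1395834 of 13657089 and 1267348 of 16794854 fibroblast UMIs in DSS. In control they held 316953 of 6627913 and 330159 of 9672991. Within telocytes alone, the edgeR fold changes were 1.63 for Bmp2, 0.89 for Bmp7, 0.73 for Id3 and 0.18 for Bmp3. The part of this make-up in the class differences was not tested.

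Bmp4, the main stromal ligand of the gut, came from fibroblasts for 82.2% of its UMIs. They were the highest of the fitted classes at 479 and 413 CPM in DSS and 416 and 451 CPM in control, apart from smooth muscle or myofibroblasts at 309 and 333 CPM in DSS and 196 and 267 CPM in control. Lamina propria fibroblasts, marked by Adamdec1, had 919 and 953 CPM in DSS and 1109 and 974 CPM in control (-0.03, SE 0.38, adjusted p = 1.0 in edgeR), and their range overlapped that of telocytes. A Bmp4 UMI was found in 90.4% of DSS and 90.5% of control lamina propria fibroblasts, against 1.29% of DSS B cells and 0 of 171 control B cells, which allows up to 2.13% of control B cells with a UMI (exact binomial over cells of both libraries, counting error only) and sets no limit on cells that express the gene. Median depths of the lamina propria fibroblasts were 4059 UMIs in DSS and 3680 in control. Submucosal fibroblasts had less Bmp4, at 408 and 386 CPM in DSS and 294 and 337 CPM in control (0.41, SE 0.31, adjusted p = 1.0 in edgeR). Adventitial fibroblasts, marked by Pi16, had 261 and 247 CPM in DSS and 204 and 267 CPM in control.

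Bmp5 was shared between telocytes, with 43.5% of its UMIs, and lamina propria fibroblasts, with 30.2%. Lamina propria fibroblasts had 194 and 243 CPM in DSS and 286 and 220 CPM in control. The muscle-like cells split by cluster. The cluster led by Hhip, which encodes a hedgehog-binding protein, had 209 and 239 CPM in DSS and 185 and 246 CPM in control. The cluster led by Actg2, which encodes a smooth muscle actin, had 21.1 and 16.0 CPM in DSS and 18.7 and 22.2 CPM in control. Bmp4 was also higher in the Hhip-led cluster, at 564 and 561 CPM in DSS and 515 and 348 CPM in control, than in the Actg2-led one, at 131 and 65.8 CPM in DSS and 85.0 and 92.5 CPM in control.

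Bmp3, an atypical ligand known to oppose other BMPs, was the most epithelial of the ligands, with 40.7% of its UMIs in colonocytes and 36.2% in progenitors over the pooled libraries. Colonocytes held 25.3% and 39.9% in DSS and 24.9% and 64.6% in control. Progenitors had 43.3 and 71.1 CPM in DSS and 45.0 and 43.9 CPM in control (0.46, SE 0.24, adjusted p = 0.341 in edgeR). Colonocytes had 26.7 and 29.8 CPM in DSS and 35.8 and 38.0 CPM in control (-0.47, SE 0.21, adjusted p = 0.407 in edgeR). The ranges of the 2 classes did not overlap, nor did the DSS and control colonocytes. Telocytes lay above both classes at 237 and 240 CPM in DSS and 196 and 270 CPM in control. Within colonocytes, Bmp3 differed by -0.03 (SE 0.29, adjusted p = 0.990 in edgeR) in the surface cluster led by Mal. The value was -0.64 (SE 0.25, adjusted p = 0.299 in edgeR) in the surface cluster led by Duoxa2. A further colonocyte cluster, cluster 6, was not fitted. It held 136 and 1694 cells in DSS 1 and DSS 2 and 7 and 171 in control 1 and control 2.

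In progenitors, Bmp2 rose in DSS, to 45.2 and 31.5 CPM, against 6.85 and 11.4 CPM in control. The means were 38.3 ± 9.65 and 9.15 ± 3.25 CPM (SD, n = 2 each), and the fold change was called (2.22, SE 0.31, adjusted p = 0.0217 in edgeR). A Bmp2 UMI was found in 31.1% of DSS and 10.1% of control progenitors at median depths of 19350 and 15770 UMIs, and in 4.74% and 1.19% after thinning to 1500 UMIs. Without control 1 the fold change was 1.96 with an adjusted p of 0.0517, and with clusters at resolution 2 the class had 8.06 and 23.1 CPM in DSS and 5.13 and 10.1 CPM in control (1.25, adjusted p = 0.218 in edgeR). At that resolution the class held only 40 and 160 DSS cells, against 1548 and 636 control cells. An unnamed cluster of that resolution, led by Sult1c2, Gsdmc3 and Cyp2c68, with 268 and 364 DSS cells and 403 and 124 control cells, had 39.7 and 26.8 CPM of Bmp2 in DSS and 12 and 17.1 CPM in control (1.29, SE 0.33, adjusted p = 0.838 in edgeR). In cluster 2, the larger progenitor cluster, Bmp2 stood at 51.0 and 33.4 CPM in DSS and 7.84 and 12.7 CPM in control (2.19, SE 0.32, adjusted p = 0.0140 in edgeR, 0.0513 without control 1).

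The cells under the progenitor name were not alike in the 2 groups. The 6 crypt base markers, Lgr5 among them, summed to 17.5 and 19.6 CPM in DSS and 204 and 388 CPM in control progenitors, with 6 of 6 lower in both DSS libraries and 0 at 0. The 5 mid-crypt markers summed to 5081 and 3032 CPM in DSS and 1874 and 1169 CPM in control, with 5 of 5 higher. The 9 colonocyte markers summed to 3814 and 3453 CPM in DSS and 1265 and 1495 CPM in control, with 5 higher. Their part in the Bmp2 difference was not tested. At resolution 2, the crypt base cluster had 0 and 21.9 CPM of Bmp2 in DSS and 5.78 and 8.32 CPM in control, with only 13 and 26 DSS cells. A mid-crypt cluster led by Cyp2c68 had 108 and 52.4 CPM in DSS and 39.6 and 39.1 CPM in control. The unnamed cluster given above, also with Cyp2c68 among its leading genes, lay below this mid-crypt cluster in each library. A surface cluster led by Duoxa2 had 216 and 192 CPM in DSS and 64.2 and 95.8 CPM in control. That surface cluster held only 26 and 50 DSS cells and was not fitted.

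**Figure D3:**
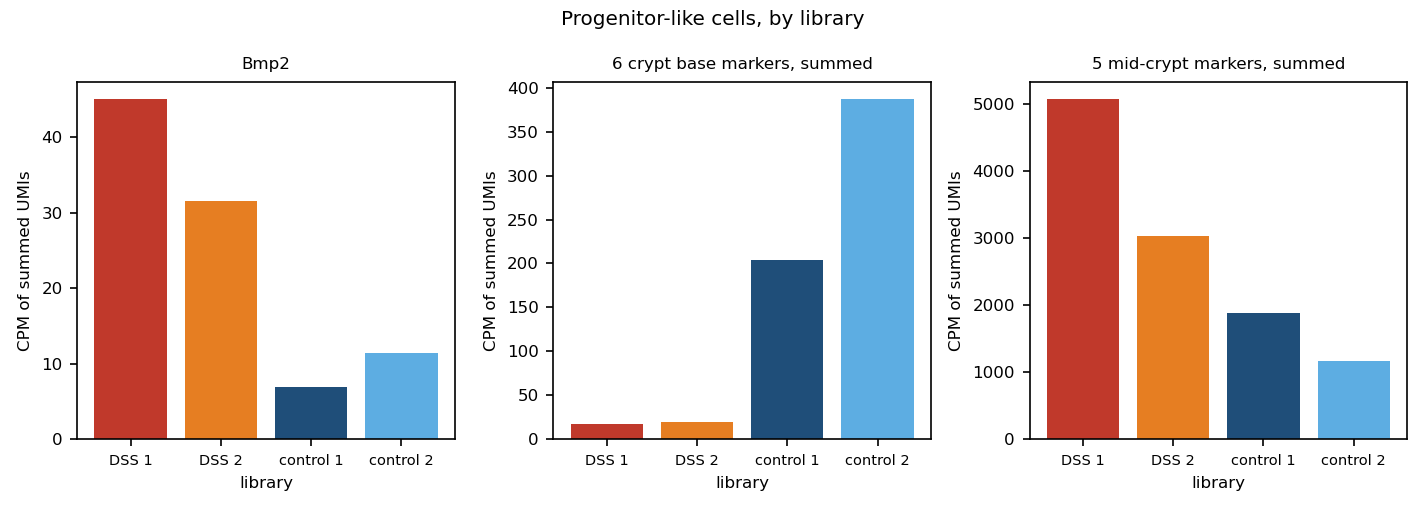
CPM of summed UMIs in progenitor-like cells of each library for Bmp2, for 6 crypt base markers summed and for 5 mid-crypt markers summed. Bmp2 is 45.2 and 31.5 in DSS and 6.85 and 11.4 in control, crypt base markers are lower and mid-crypt markers higher in both DSS libraries.

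edgeR tested 7 members in progenitors and called 1, where it called 2.98% of all genes, and 3 members had an unadjusted p under 0.05. In cluster 2 it called 1 of 6 members and 4.05% of all genes. DESeq2 called 2 members in progenitors, Bmp2 and Grem1, and 7.39% of all genes. Grem1 was a trace there, with 14 and 65 UMIs in DSS and 24 and 14 UMIs in control. Of 4 members with at least 10 CPM in progenitors, 1 lay higher and 0 lower in both DSS libraries, where 22.6% of all genes lay higher and 27.1% lower. Bmp7 was low as well, with 5 and 4 UMIs in DSS and 59 and 53 UMIs in control progenitors, or 0.678 and 0.290 CPM in DSS and 1.68 and 3.91 CPM in control. Both DSS libraries lay below both controls. The difference was not called in the main edgeR fit (-2.46, SE 0.68, adjusted p = 0.0966) or by DESeq2 (adjusted p = 0.0690). On all 4 libraries, edgeR called it with replicate number as a second term (-2.46, adjusted p = 0.0453). It was also called by edgeR with no filter on low counts (-2.48, adjusted p = 0.00236). Without DSS 1 the fold change was -3.15. The crypt base and mid-crypt markers above moved with Bmp7, and their part was not tested.

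In goblet cells, the mucus-secreting cells, Bmp2 stood at 27.5 and 45.6 CPM in DSS and 10.2 and 19 CPM in control (1.48, SE 0.29, adjusted p = 0.150 in edgeR, 0.00813 in DESeq2). In colonocytes it stood at 99.7 and 77.7 CPM in DSS and 51.1 and 70.3 CPM in control (0.45, SE 0.26, adjusted p = 0.520 in edgeR). In both classes the DSS libraries lay above the controls. Bmp7 in goblet cells had 10 and 5 UMIs in DSS and 52 and 54 in control, or 1.17 and 0.576 CPM in DSS and 2.37 and 7.54 CPM in control (-2.23, SE 0.72, adjusted p = 0.275 in edgeR). In glia, 26 and 19 Bmp2 UMIs were counted in DSS and 1 and 1 in control (3.82, SE 0.72, adjusted p = 0.715 in edgeR), while the 7 fibroblast markers in glia summed to 3443 and 4860 CPM in DSS and 1958 and 2882 CPM in control, with 5 higher in both DSS libraries. Their part was not tested.

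Grem1 encodes gremlin 1, a secreted antagonist that binds BMP2 and BMP4 and is known from stroma below the crypts. Over the pooled libraries, fibroblasts held 79.2% of its UMIs and smooth muscle or myofibroblasts 16.7%, almost all of these in the Actg2-led cluster. The share of smooth muscle or myofibroblasts was 36.9% and 3.34% in DSS and 33.0% and 4.25% in control, so it differed more within groups than between them. The Actg2-led cluster had 978 and 375 CPM in DSS and 629 and 596 CPM in control (0.22, SE 0.58, adjusted p = 1.0 in edgeR). Lamina propria fibroblasts had 423 and 747 CPM in DSS and 274 and 660 CPM in control (0.46, SE 0.47, adjusted p = 1.0 in edgeR). Submucosal fibroblasts had 564 and 440 CPM in DSS and 276 and 536 CPM in control (0.40, SE 0.42, adjusted p = 1.0 in edgeR). In all 3 clusters the groups overlapped. The fold changes turned to -0.75 in the Actg2-led cluster without DSS 1, and to -0.03 in lamina propria and below 0 in submucosal fibroblasts without control 1. The inflamed fibroblast cluster gave 25.8% of Grem1 UMIs, with 144 and 3769 UMIs in DSS and 0 and 664 in control.

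Telocytes had little Grem1, with 19 and 8 UMIs in DSS and 0 and 2 in control, or 13.6 and 6.31 CPM in DSS and 0 and 6.06 CPM in control. This low level depended on the clustering in DSS 2: the telocyte cluster of resolution 2 held 19 and 130 Grem1 UMIs in DSS and 0 and 2 in control, or 13.6 and 98.7 CPM in DSS and 0 and 5.69 CPM in control. At either resolution telocytes lay below the Grem1 level of lamina propria fibroblasts. A Grem1 UMI was found in 2.39% of DSS and 1.22% of control telocytes, against 0.776% of DSS and 0.585% of control B cells, and in 42.3% of DSS and 37.9% of control lamina propria fibroblasts. Interstitial fibroblasts, marked by Kcnn3, were also low, at 6.75 and 7.28 CPM in DSS and 3.76 and 3.39 CPM in control.

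Chrdl1 encodes chordin-like 1, a secreted BMP antagonist. The Actg2-led muscle-like cluster held 42.6% of its UMIs over the pooled libraries, 58.1% and 21.7% in DSS and 27.6% and 24.3% in control. Its level was 234 and 105 CPM in DSS and 99.4 and 192 CPM in control (0.35, SE 0.53, adjusted p = 1.0 in edgeR). The groups overlapped, and the fold change was -0.03 without control 1 and -0.47 without DSS 1. An unnamed cluster led by Cckar and Pcp4 had 172 and 94.4 CPM in DSS and 225 and 95.8 CPM in control. Submucosal fibroblasts had 16.1 and 7.21 CPM in DSS and 15.9 and 15.3 CPM in control. Thus the Actg2-led cluster carried both antagonists.

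**Figure D4:**
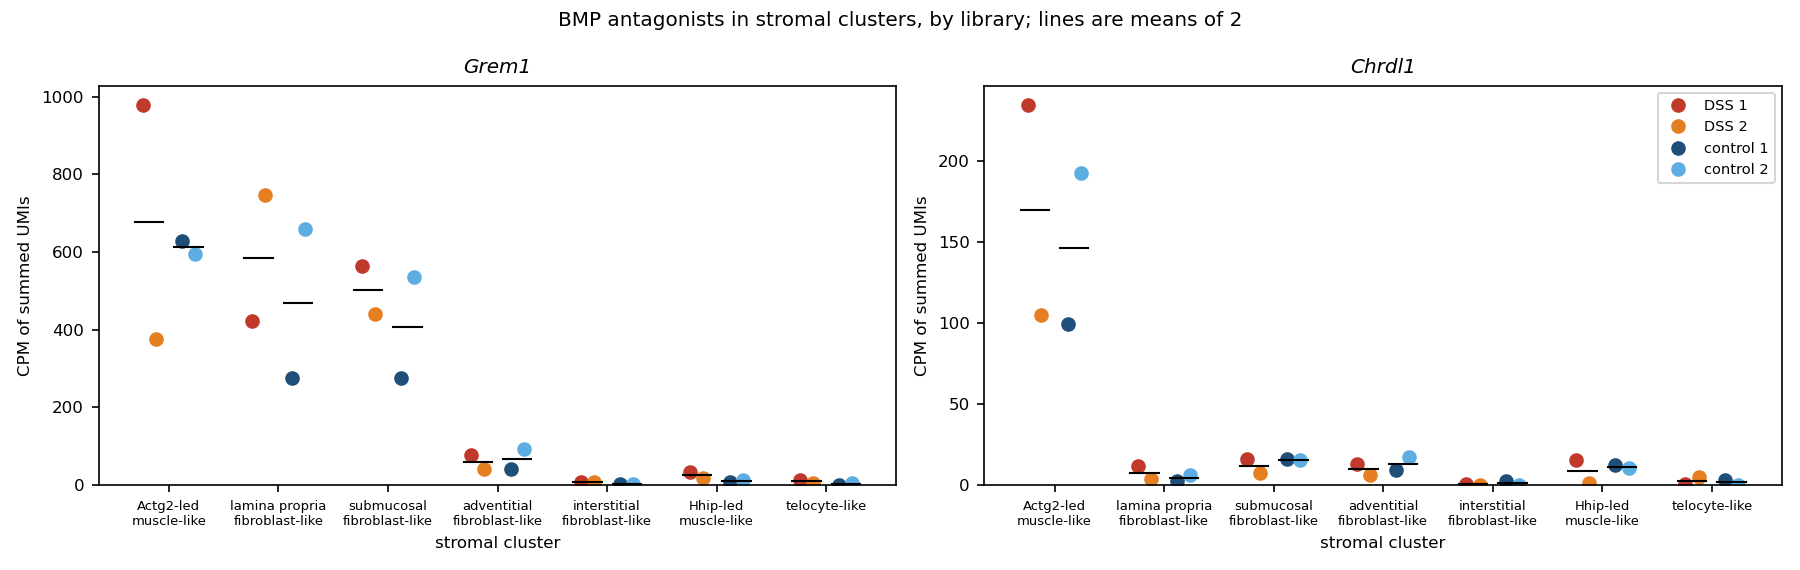
CPM of summed UMIs of Grem1 and Chrdl1 in stromal clusters, 1 point per library and a line at the mean of 2. Grem1 is high in Actg2-led muscle-like cells and in lamina propria and submucosal fibroblast-like cells, Chrdl1 in Actg2-led cells, and both are low in telocyte-like cells.

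Id1 was mostly epithelial, with 38.7% of its UMIs in progenitors and 38.5% in colonocytes. Progenitors had 707 and 520 CPM in DSS and 526 and 374 CPM in control (0.55, SE 0.35, adjusted p = 0.425 in edgeR). Colonocytes had 436 and 205 CPM in DSS and 721 and 193 CPM in control. Libraries of a group differed as much as the groups did, and the 2 classes overlapped in range. In goblet cells the groups were apart, with 258 and 269 CPM in DSS and 124 and 131 CPM in control, or 263 ± 7.28 against 128 ± 4.92 CPM (SD, n = 2 each). That difference was not called in the main edgeR fit (1.18, SE 0.24, adjusted p = 0.162) but was by DESeq2 (adjusted p = 0.00152). With replicate number as a second term, edgeR called it (1.18, adjusted p = 0.0431). It was also called by edgeR with no filter on low counts (1.14, adjusted p = 0.00891).

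edgeR called 0 of 7 members and 0% of all genes in goblet cells, with 4 members at an unadjusted p under 0.05. DESeq2 called 2 members, Bmp2 and Id1, and 3.22% of all genes. Of 4 members with at least 10 CPM there, 2 lay higher and 0 lower in both DSS libraries, where 11.3% of all genes lay higher and 24.3% lower. The 6 crypt base markers in goblet cells summed to 17.6 and 15.6 CPM in DSS and 79.2 and 152 CPM in control, with 6 lower and 0 at 0, and their part was not tested.

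Id3 was mostly stromal by level. Vascular mural cells had 1104 and 1215 CPM in DSS and 775 and 1002 CPM in control (0.51, SE 0.38, adjusted p = 1.0 in edgeR). Telocytes had 1293 and 2343 CPM in DSS and 1786 and 554 CPM in control, which overlapped. Lamina propria fibroblasts had 1226 and 2333 CPM in DSS and 650 and 609 CPM in control (1.61, SE 0.44, adjusted p = 0.614 in edgeR, 0.0455 in DESeq2). Both DSS libraries lay above both controls. An Id3 UMI was found in 88.8% of DSS and 66.2% of control lamina propria fibroblasts, against 4.76% of DSS and 4.58% of control NK or ILC cells, the class with the lowest share.

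Id1 in lamina propria fibroblasts stood at 121 and 279 CPM in DSS and 74.8 and 55.9 CPM in control (1.72, SE 0.43, adjusted p = 0.529 in edgeR). edgeR called 0 of 8 members and 0% of all genes in these cells, with 3 members at an unadjusted p under 0.05, and DESeq2 called 1 member and 0.241% of all genes. Of 7 members with at least 10 CPM, 2 (Id1 and Id3) lay higher and 1 (Bmp4) lower in both DSS libraries, where 7.28% of all genes lay higher and 22.9% lower. The 8 inflamed fibroblast markers summed to 382 and 2074 CPM in DSS and 170 and 630 CPM in control in these cells, with 1 higher in both DSS libraries and 0 at 0, and their part was not tested.

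In colonocytes Id3 ran the other way, with 94.8 and 95.1 CPM in DSS and 345 and 209 CPM in control. Both DSS libraries lay below both controls, and the difference was not called in the main edgeR fit (-1.61, SE 0.28, adjusted p = 0.148). It was called by DESeq2 (adjusted p = 3.46e-05). On all 4 libraries, edgeR called it with replicate number as a second term (-1.58, adjusted p = 0.0200). It was also called by edgeR with no filter on low counts (-1.61, adjusted p = 6.09e-05). The fold change was -1.30 without control 1 and -1.87 without control 2. In the surface cluster led by Duoxa2, cluster 3, Id3 had 27.7 and 68.3 CPM in DSS and 197 and 151 CPM in control (-2.02, SE 0.40, adjusted p = 0.0804 in edgeR, 0.000169 in DESeq2, 0.00664 in edgeR without control 1 and 0.0131 without control 2). In the surface cluster led by Mal, Id3 had 125 and 136 CPM in DSS and 364 and 234 CPM in control (-1.31, SE 0.27, adjusted p = 0.356 in edgeR, 0.00755 in DESeq2 and 0.0277 in edgeR without control 2).

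In colonocytes edgeR called 0 of 7 members and 0% of all genes, with 1 member at an unadjusted p under 0.05, and DESeq2 called 1 member and 2.49% of all genes. In cluster 3 edgeR called 0 of 4 members and 0.571% of all genes, with 2 members at an unadjusted p under 0.05, and DESeq2 called 1 member and 2.01% of all genes. Of 4 members with at least 10 CPM in colonocytes, 1 (Bmp2) lay higher and 2 (Bmp3 and Id3) lower in both DSS libraries, where 29.3% of all genes lay higher and 20.5% lower. The 6 surface markers in colonocytes summed to 8213 and 9449 CPM in DSS and 16980 and 14630 CPM in control, with 4 lower. The 5 injury markers summed to 1552 and 2861 CPM in DSS and 507 and 514 CPM in control, with 3 higher. No marker of either list was at 0, and their part was not tested.

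**Figure D5:**
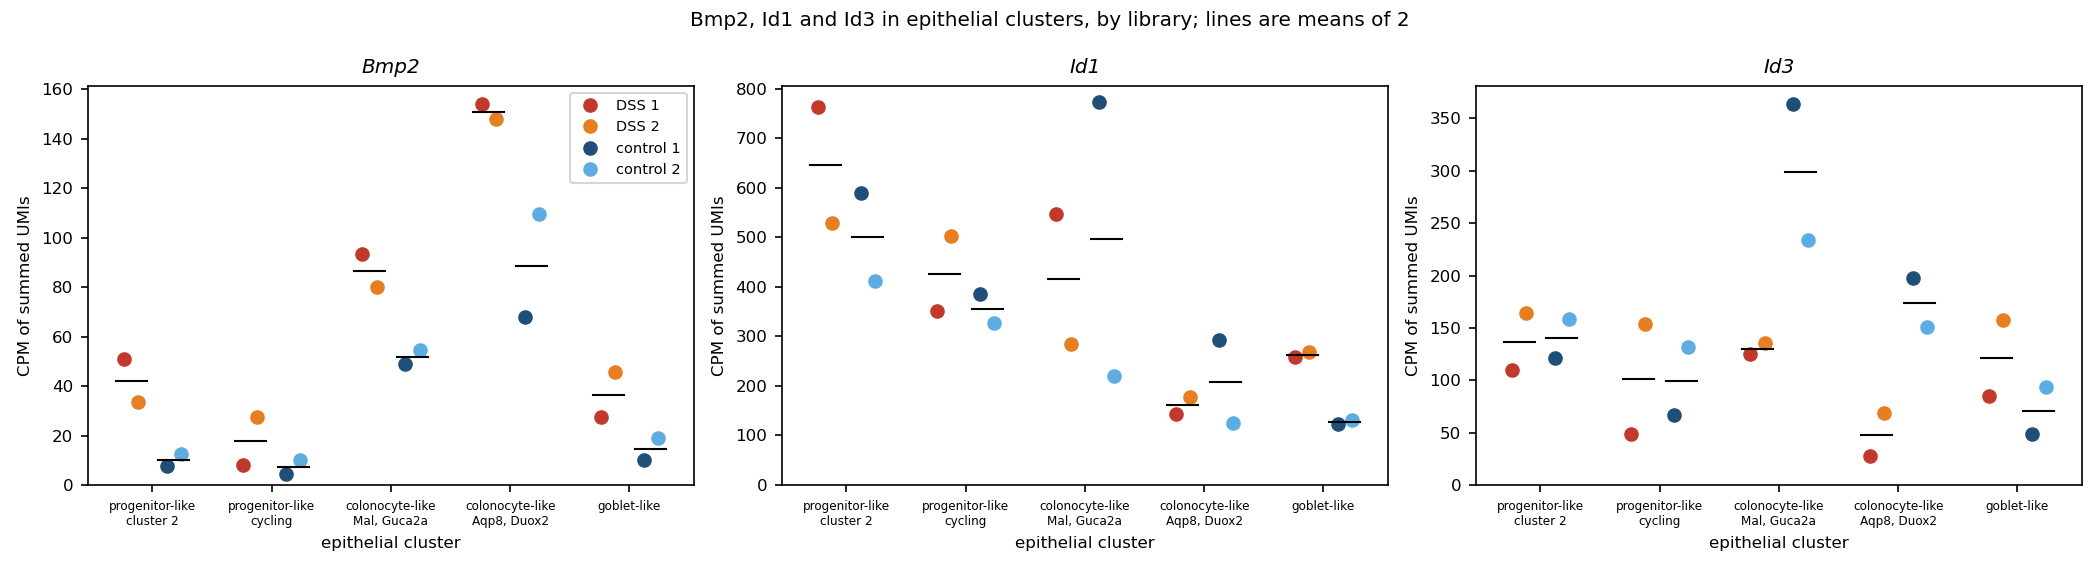
CPM of summed UMIs of Bmp2, Id1 and Id3 in epithelial clusters, 1 point per library and a line at the mean of 2. Bmp2 is higher in both DSS libraries in cluster 2, in both surface colonocyte clusters and in goblet cells, Id3 is lower in both surface clusters, and Id1 is apart in goblet cells only among the clusters drawn.

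A wider list of 62 genes of the pathway, of which 61 matched a symbol in the files, was read in the same fits. In the 12 classes, edgeR called 0 of 18 tested pairs of a ligand and a class in either direction. It called 0 of 95 pairs for extracellular modulators, 0 of 76 for receptors and 0 of 111 for signal transducers. Of 43 pairs for targets it called 1, Atoh8, which was lower in DSS progenitors. Of all genes, edgeR called 2.98% in progenitors and 0% in every other class of these 12. Atoh8, a transcription factor gene, had 2 and 2 UMIs in DSS and 62 and 40 UMIs in control progenitors (-3.44, SE 0.68, adjusted p = 0.0421 in edgeR). The call was lost with predicted doublets kept, and the crypt base markers given above moved with it, their part not tested. DESeq2 called more genes of the list. Of all genes, DESeq2 called 0.192% in fibroblasts, 2.49% in colonocytes, 7.39% in progenitors and 3.22% in goblet cells. It called higher Smoc1, a gene of a secreted BMP modulator, in DSS fibroblasts (3.57, adjusted p = 0.00130) and lower Smad6, an inhibitory SMAD gene, in DSS colonocytes (-1.70, adjusted p = 1.37e-05). It also called lower Id2 in colonocytes, lower Atoh8 in progenitors, and lower Rgmb and Bambi in both progenitors and goblet cells. The median log2 fold change of the list in progenitors was 0.10 over 34 genes, against -0.01 over all genes tested, and in fibroblasts 0.18 over 49 genes, against 0.00.

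Further genes of the pathway with a mean of at least 50 CPM over the 4 libraries in some class had sources of their own. Interstitial cells of Cajal, the pacemaker cells of the gut, were the highest class for the ligand gene Gdf10 at 1768 CPM and for the antagonist genes Nbl1 at 967, Fst at 84.9 and Chrd at 66.8 CPM, and for the modulator gene Twsg1 at 206 CPM. Control 2 held only 11 of these cells, with Fst at 0 CPM in them, and only 8 neurons. Fibroblasts led for Fstl1 at 1160 CPM, for the chordin-cleaving protease gene Bmp1 at 184 CPM and for the ligand gene Bmp6 at 75.6 CPM. Vascular mural cells led for Crim1 at 758 and the activin subunit gene Inhba at 182 CPM, glia for the antagonist gene Sostdc1 at 254 CPM, and neurons for the co-receptor gene Rgmb at 510 CPM. Smooth muscle or myofibroblasts led for Fstl3 at 70.6 and Rgma at 55.0 CPM.

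Among receptor genes, blood endothelial cells led for Eng at 840.4, Bmpr2 at 344, Acvrl1 at 222 and the decoy receptor gene Bambi at 60.5 CPM, and for the ligand gene Inhbb at 58.2 CPM, although control 2 held 1 such cell. Bmpr1a was highest in interstitial cells of Cajal at 197 CPM, Neo1 in smooth muscle or myofibroblasts at 96.2 CPM and Acvr1 in glia at 50.2 CPM. Among transducers and inhibitors, lymphatic endothelial cells led for Smad1 at 384, Smad5 at 167 and the ubiquitin ligase gene Smurf2 at 117 CPM. Control 2 held only 18 lymphatic endothelial cells. Progenitors led for Smad4 at 185 CPM and T cells for the inhibitory Smad7 at 251 CPM. Skil was highest in monocytes or macrophages at 448, Tob1 in goblet cells at 246, Ski in fibroblasts at 244 and Smurf1 in vascular mural cells at 84.5 CPM. Among targets, Id2 at 788 and Runx2 at 59.4 CPM were highest in NK or ILC cells, Id4 in smooth muscle or myofibroblasts at 279, Ube2h in interstitial cells of Cajal at 183 and Hey1 in lymphatic endothelial cells at 60.6 CPM.

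The genes most like each member were ranked by Pearson's r of log2(CPM + 1) over 48 points, the 12 classes in 4 libraries, which share libraries and depths. For Grem1 they were Rspo3, which encodes a WNT-enhancing R-spondin (r = 0.957), Pamr1 and Dchs1. For Bmp4 they were the collagen gene Col6a2 (r = 0.965), Abi3bp and Colec12, and for Bmp5 Cdh13 (r = 0.916), Meis2 and Pitx1. For Chrdl1 they were Csdc2 (r = 0.925), Flnc and Rem1, for Id3 Klf9 (r = 0.905), Dst and Cdc42bpa, and for Id1 Csrp2 (r = 0.867), Trim2 and Uqcr11. Bmp3 was most like Adk (r = 0.814), Naprt and Ptprd, Bmp7 like Cpne7 (r = 0.787), Lif and Gm4956, and Bmp2, with the lowest r of the 9, like Adam15 (r = 0.741), Mfhas1 and Prkaca.

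On GRCm38, Bmp2 (ENSMUSG00000027358) spans chr2:133552159-133562885, Grem1 (ENSMUSG00000074934) chr2:113746164-113758646, Bmp7 (ENSMUSG00000008999) chr2:172868012-172940321 and Id1 (ENSMUSG00000042745) chr2:152736251-152737410. Bmp3 (ENSMUSG00000029335) spans chr5:98854415-98884396, Bmp4 (ENSMUSG00000021835) chr14:46383520-46390669, Bmp5 (ENSMUSG00000032179) chr9:75775364-75900310, Chrdl1 (ENSMUSG00000031283) chrX:143285674-143394262 and Id3 (ENSMUSG00000007872) chr4:136143497-136145755.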

How the data were processed

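The authors deposited raw UMI counts, 1 whole number per gene and cell barcode. Cell Ranger 6.1.1 and GRCm38 are named in the submitters' processing notes, and its options were not stated. The labels name version 3 of the kit for capture and version 2 reagents for the library, a difference not resolved here. The members and lists were chosen with earlier results of these data known. Cells with at least 500 UMIs, 250 genes and at most 25% mitochondrial UMIs were kept, which removed 5.16% and 6.42% of DSS barcodes and 14.0% and 17.4% of control barcodes for mitochondrial UMIs, and doublets predicted by Scrublet (3.85% and 5.38% of DSS cells, 3.03% and 4.69% of control cells) were removed after clustering. Clustering used scanpy 1.11.5 and leidenalg 0.10.2 with 2000 variable genes, none of them a member or wider pathway gene, 40 components, 20 neighbours and resolution 1. The name of a class needed at least 3 markers, each seen in at least 15% of the cluster's cells and at least 2-fold above the remaining cells. Names within fibroblasts, and within colonocytes and progenitors together, followed a looser rule. They needed at least 3 markers, each seen in at least 10% of the cluster's cells and at least 1.5-fold above the other cells of that set. UMIs were summed per library and class. Classes and clusters with at least 30 cells in every library were fitted in edgeR 4.0.16 (R 4.3.3; TMM, filterByExpr, no term but group), and quasi-likelihood F tests, two-sided, were Benjamini-Hochberg adjusted over all genes of the class. All 9 members were named, and from the wider list the genes called and those reaching 50 CPM, except a result that is not reported here. On simulated counts with 200 changed genes, the progenitor fit recovered 69% of genes changed by 2 and 99% of those changed by 3 on the log2 scale. The simulation gave every gene the same fixed dispersion and changed only genes above a limit on expected UMIs. It held no difference in make-up between libraries of a group. These rates therefore do not give the recovery in the real libraries or for genes with few UMIs. Alternatives were DESeq2 1.42.0, RLE size factors, no filter on low counts, each library left out, a replicate block, doublets kept, at most 10% mitochondrial UMIs, resolution 2, cells thinned to 1500 UMIs and a pseudocount of 10.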

Additional observations from a re-analysis of the deposited data

Results flagged for a closer look

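Bmp4 differed in direction between 3 stromal clusters, 1 of them by a value near 0. Its log2 fold change of DSS over control was 0.406 in submucosal fibroblast-like cells and 0.421 in Hhip-led muscle-like cells, where both DSS libraries lay above both controls, and -0.0282 in lamina propria fibroblast-like cells, where both lay below. The last value has an SE of 0.378 and turned sign without control 1 (0.0978) and with predicted doublets kept (0.0365). Id3 differed in direction between 3 classes and clusters, with 1.61 in lamina propria fibroblast-like and 0.511 in vascular mural-like cells, where both DSS libraries lay above both controls, and -1.61 in colonocyte-like cells, where both lay below. These directions do not divide stroma from epithelium: Id3 was 0.899 in goblet-like and 0.171 in progenitor-like cells and -0.821 in Actg2-led muscle-like cells. The difference between these effects was not tested in either gene.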

How the results depend on the processing

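Higher Bmp2 in DSS progenitors kept its direction under every alternative run, with log2 fold changes of 1.85 to 2.55 when 1 library was left out (adjusted p = 0.0517 without control 1), and was not called at resolution 2 (1.25). The number of called member pairs, 2 of 164, was 11 in DESeq2, 19 with no filter, 2 to 7 with 1 library left out and 1 at resolution 2, where the call was a trace of Grem1 in progenitors. The wider list, with 2 calls, had 14 in DESeq2, 30 with no filter, 4 to 9 with 1 library left out and 0 with doublets kept. With the replicate block the counts were 15 and 34, and same-numbered libraries correlated at 0.052 to 0.675. The labels do not pair the libraries, which share only a number. Calls over all genes rose as well: edgeR called 0% in colonocytes and 2.98% in progenitors, and DESeq2 2.49% and 7.39%. The higher counts in DESeq2 therefore do not single out the members or the wider list. For the other settings the counts are not set beside all genes, and nothing is read from how they differ. With 1 library left out, some uncalled fold changes turned sign: Bmp4 ran between -0.229 and 0.299 in telocytes and between -0.169 and 0.0978 in lamina propria fibroblasts, Grem1 between -0.0325 and 1.16 in lamina propria fibroblasts, between -0.00483 and 0.912 in submucosal fibroblasts and between -0.746 and 0.803 in Actg2-led cells, and Chrdl1 between -0.471 and 0.855 in Actg2-led cells. Bmp4 in lamina propria fibroblasts was 0.0365 with doublets kept. Fibroblasts led for 2 members and, at resolution 2, for 4, and 12 of 27 like genes were shared with a pseudocount of 10. The cause of these changes was not tested.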
